A study of Mus musculus with 35 samples.

Results

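Aortas of mice lacking apolipoprotein E (EKO) were compared with aortas of wild-type (WT) mice, both on the C57BL/6 background and both on regular chow for 6 weeks. The comparison used 6 of the 35 libraries of the series, 3 per genotype, chosen by genotype, diet and duration in their titles, and covered all 14157 genes that passed a filter on low values. The full series has 12 groups and also covers a Western diet (WD), 22 weeks of feeding, and EKO mice that overexpress human apoA-I (EKO/hA-I). Feeding began at 8 weeks of age, so the 6 aortas came from mice aged 14 weeks. Per the labels, blood was flushed out with saline, the vessel was taken from its root to the iliac bifurcation, and the fat around it was stripped off. The EKO and WT groups of this comparison shared the strain, the diet, the age and this handling, and neither carried the human apoA-I transgene. The labels do not describe the Apoe allele beyond the name EKO and do not say whether littermates were used. They give n = 3 and do not say whether a library was 1 aorta or a pool. The p-values therefore measure spread between libraries. For limma, p-values and SEs used a spread pooled over the 35 libraries of all 12 groups, except where another fit is named.

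Apolipoprotein E sits on remnant lipoproteins and is the ligand through which the liver clears them from plasma. Mice without it carry high plasma cholesterol even on chow and develop atherosclerosis with age, with lipid-laden macrophages collecting under the endothelium. The vessel wall itself is made mainly of smooth muscle cells, elastic lamellae and collagen, with a fibroblast-rich adventitia outside and, around much of the aorta, brown and white fat and sympathetic nerve fibres.

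The 6 libraries rested on about 10980000 to 17450000 reads each, estimated from the spacing of low values, and 66 to 118 genes were listed at 0 in a library. All carried the RNA of an artery. Acta2, the smooth muscle actin, had a normalised signal of 3430, 6776 and 10220 in WT replicates 1 to 3 and 10490, 11910 and 12550 in EKO replicates 1 to 3. The endothelial adhesion molecule Pecam1 lay between 265 and 585. The libraries nevertheless differed in neighbouring tissue. Summed over 16 measured markers of brown adipocytes, the signal was 7407, 5220 and 2993 in WT and 2349, 2577 and 1948 in EKO. The groups did not overlap, with every EKO library below every WT library, and the exact two-sided permutation p was 0.1, the smallest that 3 against 3 libraries allow. None of the 16 markers was at 0 in all 6 libraries. Ucp1, the uncoupling protein that defines brown fat, stood at 3096, 1925 and 939.7 in WT and at 1024, 786.8 and 698.2 in EKO, so that the lowest WT library lay inside the EKO range. Contractile smooth muscle genes, 20 in number, ran the other way within WT: their sum was 14700, 25940 and 37330 in WT and 35380, 39780 and 44010 in EKO.

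Sympathetic neuron genes were high in 1 library. The sum over 24 measured members was 58.6, 270.7 and 622 in WT and 4228, 96.3 and 74.1 in EKO, an overlapping set in which EKO replicate 1 stood far above the other 5. Th, tyrosine hydroxylase of catecholamine-making neurons, was 0.51, 14.0 and 43.2 in WT and 248.9, 1.85 and 0.34 in EKO. Skeletal muscle markers were also highest in EKO replicate 1, with a sum of 2001 against 197 to 521 in the other 5 libraries. Y-linked transcripts were missing from replicate 1 of each group, so sex was balanced between the genotypes. The level of each marker list by library is drawn in the plot of summed marker signal.

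**Figure D1:**
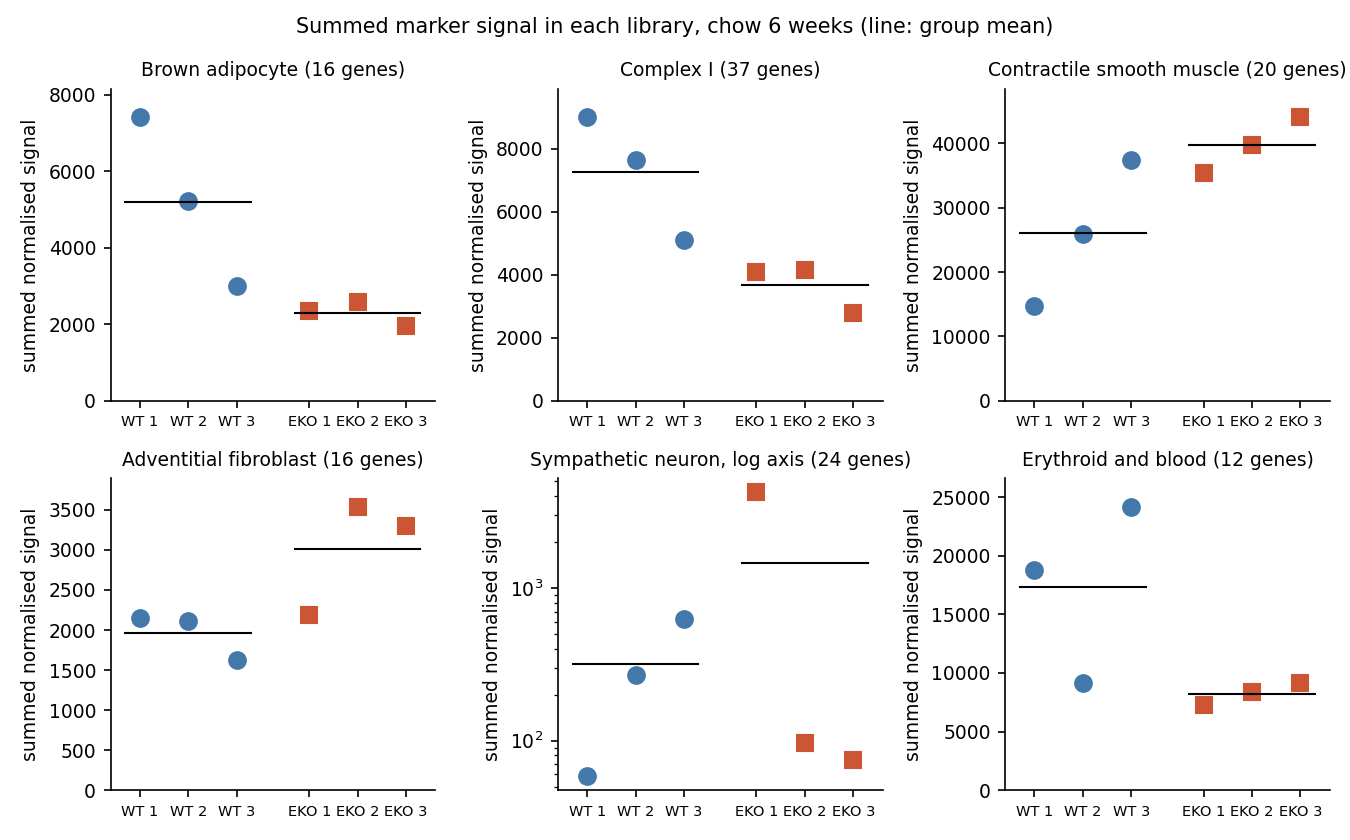
Summed normalised signal of 6 gene lists in each library, WT as blue circles and EKO as red squares, with the group mean as a line. The vertical axis starts at 0 except for sympathetic neuron genes, where it is logarithmic. Brown adipocyte and complex I sums are lower in every EKO library than in every WT library, the WT libraries range from 14700 to 37330 in smooth muscle genes, and EKO replicate 1 has a neuronal sum of 4228.

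At an adjusted p below 0.05 (limma, Benjamini-Hochberg over all genes), 704 of 14157 genes were called, 4.97% of those tested. Of these, 321 were higher in EKO (2.27%) and 383 lower (2.71%). The median log2 difference of all genes was 0.01, with quartiles of -0.24 and 0.26. For 27.1% of all genes the 3 EKO values lay entirely above or entirely below the 3 WT values. An unadjusted p below 0.05 was reached by 3444 genes.

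Single libraries decided most of these calls. Without WT replicate 1, the library highest in brown fat markers, 16 genes were called, and without WT replicate 2 the count was 84. Without EKO replicate 3, the library lowest in brown fat markers, it was 21, and without EKO replicate 2 it was 160. Without WT replicate 3, the WT library nearest to EKO in brown fat markers, it was 1533, and without EKO replicate 1, the library rich in neuronal RNA, it was 1185. WT replicate 1 and EKO replicate 1 also lacked Y-linked transcripts, so leaving out either of them unbalanced sex. The part of these traits in the counts was not tested. Fitting the 6 libraries alone gave 9 calls (0.0636% of genes), and adding the mean level of the brown adipocyte markers as a covariate gave 56 (0.396% of genes), of which 44 were among the 704. Of the 704 genes, 634 were called in at most 3 of the 6 fits that left out 1 library. Without WT replicate 1, and equally without EKO replicate 3, the lists described below had 0 calls, except the Apoe cluster with 2 and elastic fibre genes and LXR targets with 1 each.

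**Figure D2:**
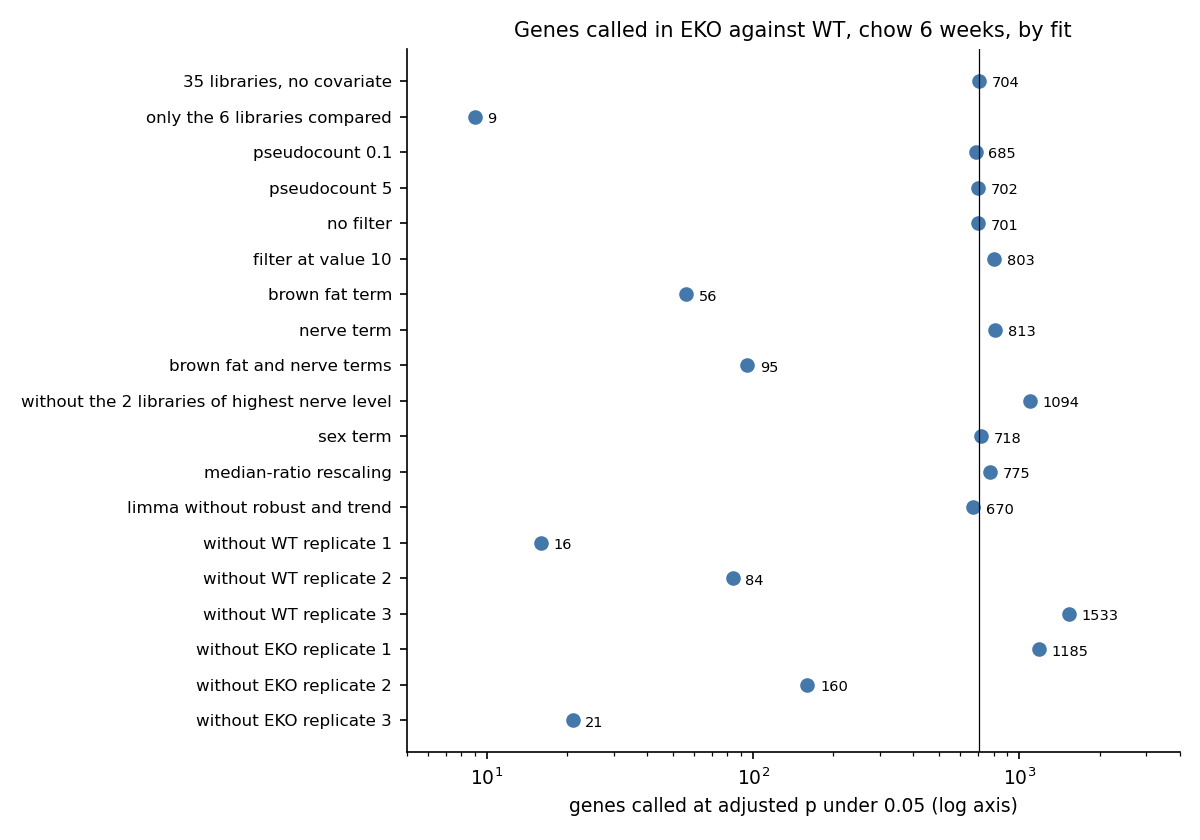
Number of genes called in EKO against WT on chow at 6 weeks (horizontal axis, logarithmic) in the fit of 35 libraries without covariates and under the alternatives, 1 point per fit. The vertical line marks the 704 genes of the former. Counts run from 9 in the fit of the 6 libraries alone to 1533 without WT replicate 3.

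Apoe was the most strongly lowered gene. Its signal was 1276, 1057 and 693.9 in WT replicates 1 to 3 and 10.25, 11.36 and 5.37 in EKO replicates 1 to 3. Every EKO library lay far below every WT library, matching the titles, while a residual signal remained in each EKO library. The log2 difference was -6.67 ± 0.31 (SE, adjusted p = 6.26e-14, limma), on the log2(value + 1) scale used throughout. Apoc1, the small apolipoprotein gene next to Apoe, was 122.1, 83.8 and 35.8 in WT and 4.59, 8.54 and 6.51 in EKO. The groups did not overlap, and the difference was -3.30 ± 0.48 (adjusted p = 0.000885). Among 25 measured genes of the Apoe cluster and its neighbourhood these 2 were called, both lower, and the list's median was -0.20 against 0.01 over all genes. The list does not hold every gene near Apoe. In the longer stretch around Apoe described below, 23 genes were called lower and 9 higher. Tomm40, the mitochondrial import channel on the other side of Apoe, averaged 39.4 ± 10.9 (SD, n = 3) in EKO and 63.0 ± 13.03 in WT and missed the threshold (-0.68 ± 0.21, adjusted p = 0.0537). Farther out, the adhesion molecule Nectin2 (-0.65 ± 0.32, adjusted p = 0.216), the blood group glycoprotein Bcam (-0.07 ± 0.37, adjusted p = 0.928), Clptm1 (-0.14 ± 0.12, adjusted p = 0.498) and the NF-kB subunit Relb (-0.16 ± 0.20, adjusted p = 0.659) were not called.

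A small set of 13 genes, 5 higher and 8 lower in EKO, was called in the fit of all 35 libraries, in each of the 6 fits that left out a library and with the brown fat covariate. Every other gene of the 704 lost the call in at least 1 of the 6 fits that left out a library. Beside Apoe and Apoc1, the lowered ones were Slc1a5, a glutamine and neutral amino acid transporter; Lgals4, encoding galectin-4; C5ar2, the second receptor of complement fragment C5a; Smg9, part of nonsense-mediated mRNA decay; Rps19, a protein of the small ribosomal subunit; and Cep89, a centrosomal protein. Slc1a5 was 866.9, 1021 and 763.3 in WT and 303.8, 343.4 and 216.1 in EKO, with a difference of -1.63 ± 0.24 (adjusted p = 0.000885; largest value 0.0176 with 1 library left out). Lgals4 was 40.8, 35.9 and 17.9 in WT and 5.96, 8.87 and 7.88 in EKO (-1.86 ± 0.29). In both genes every EKO library lay below every WT library, and the same held for the other lowered genes of the set. C5ar2 averaged 0.42 ± 0.08 against 2.19 ± 0.16 in WT, a level of few reads (-1.17 ± 0.20, adjusted p = 0.00418). Smg9 differed by -0.94 ± 0.15. Rps19 averaged 144.8 ± 11.4 against 257.7 ± 54.3 and Cep89 8.15 ± 0.28 against 14.2 ± 0.73.

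The raised genes of the set were Adamtsl2, Plac9b, Tmem254b, Plpp1 and Uggt1. Adamtsl2, which encodes a secreted protein that binds fibrillin microfibrils, was 6.51, 7.51 and 4.24 in WT and 39.5, 65.8 and 64.0 in EKO (3.01 ± 0.48, adjusted p = 0.00214). Plac9b was 30.6, 40.7 and 36.7 in WT and 140.3, 133.6 and 208.6 in EKO (2.11 ± 0.31), and Tmem254b averaged 65.4 ± 13.8 against 16.01 ± 1.65 (1.95 ± 0.23, adjusted p = 3.78e-05). Both, and Plac9a (1.71 ± 0.38, adjusted p = 0.0169), belong to near-identical gene copies on chromosome 14 among which reads may have been split, so the values of single copies are uncertain. Plpp1, a phosphatase of lysophosphatidic acid and related lipids, averaged 80.7 ± 8.20 against 39.8 ± 1.56 (1.00 ± 0.16), and Uggt1, the sensor that returns misfolded glycoproteins to the chaperone cycle of the endoplasmic reticulum (ER), 117.1 ± 8.23 against 74.9 ± 9.50 (0.64 ± 0.11). No value of these genes overlapped between the groups. The fit of the 6 libraries alone kept Apoe, Adamtsl2, Plac9b and Tmem254b of this set and also called Kng2, a kininogen, as lower and Gja5, a connexin of arterial endothelium, as higher. Its other 3 calls, named here because they were few and after their values were seen, were Cd5l, a protein secreted by macrophages, Actn2, the sarcomeric actinin, and Spon1, a secreted matrix protein, all higher in EKO and not called with 35 libraries.

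**Figure D3:**
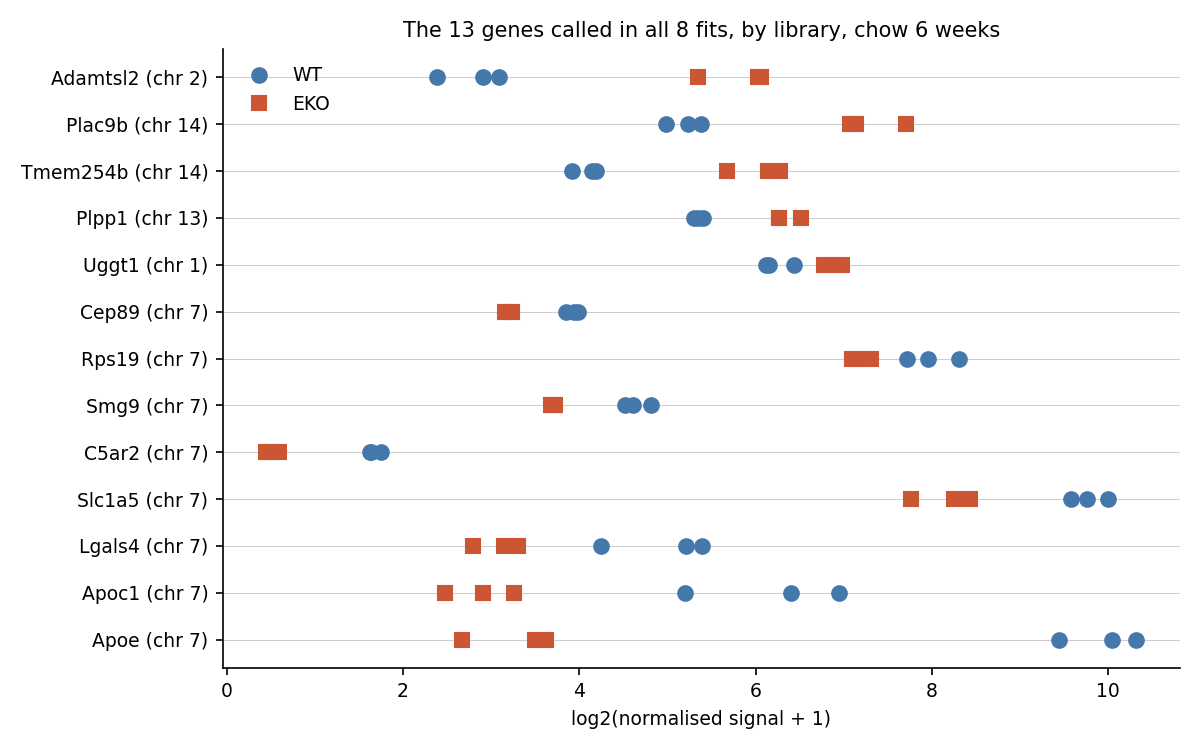
Log2(normalised signal + 1) of the 13 genes called with all 35 libraries, with each library left out and with the brown fat covariate, 1 point per library, WT as blue circles and EKO as red squares, with the chromosome beside each gene. In no gene do the groups overlap, and the 8 lowered genes all lie on chromosome 7.

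All 8 lowered genes of the set lie on mouse chromosome 7, the chromosome of Apoe. Gene order was taken from RefSeq's GRCm38 annotation, a later build than the mm8 and mm9 named by the submitters, and serves only to place genes relative to each other. Counted over measured genes, C5ar2 lies 60 genes to 1 side of Apoe, Slc1a5 lies 50 to the same side and Apoc1 is next to it. On the opposite side Smg9 follows at 19 genes, Rps19 at 28, Lgals4 at 111 and Cep89 at 204. The 5 raised genes lie on chromosomes 1, 2, 13 and 14. Within the stretch of 265 genes from C5ar2 to Cep89, 32 were called (12.1%), 23 lower and 9 higher. The share was 5.1% on the rest of chromosome 7 and 4.82% over the other chromosomes. The stretch was bounded by genes that had been called, so its share is a description without a test.

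**Figure D4:**
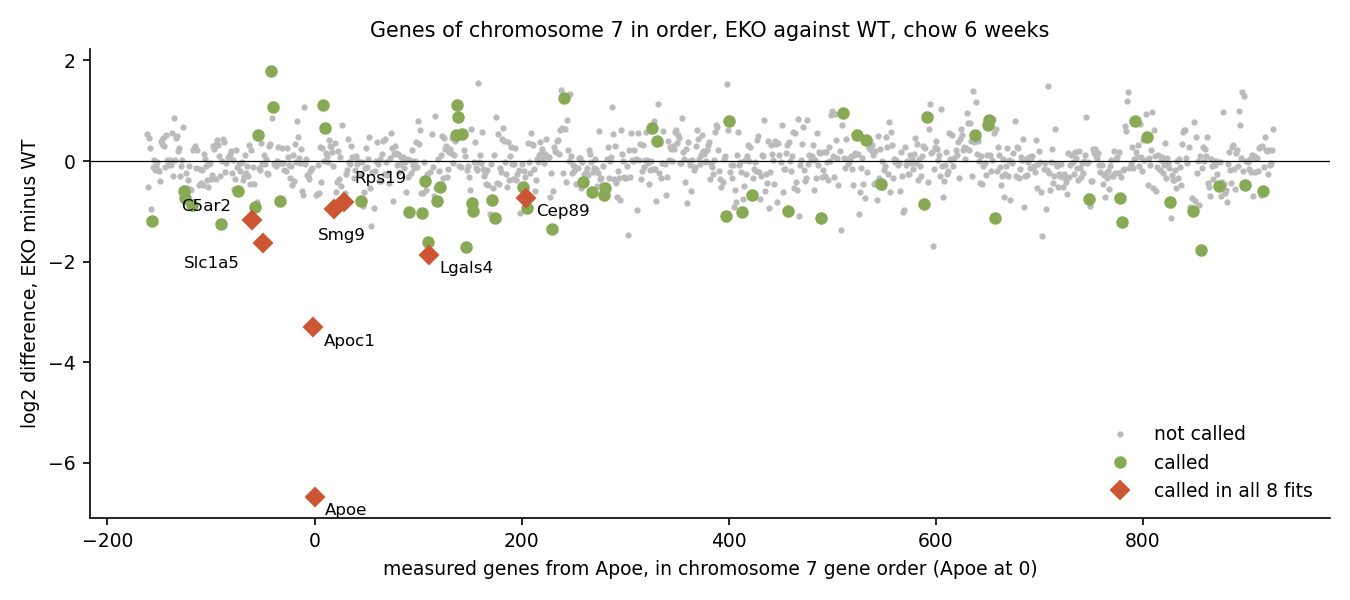
Log2 difference between EKO and WT (vertical axis) of the measured genes of chromosome 7 in their order along it, with Apoe at 0 on the horizontal axis, which counts genes. Grey points were not called, green points were called and red diamonds are the 8 lowered genes of the set of 13. These 8 lie between 60 genes before and 204 genes after Apoe, and all are below 0.

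Extracellular matrix genes were higher in EKO. Over 5 lists with 106 measured members (collagens, collagen biosynthesis, elastic fibre, basement membrane with matricellular proteins, and small proteoglycans), 25 rose and 0 fell, the median difference was 0.74 against 0.01 over all genes, and for 59 members the groups did not overlap (27.1% of all genes). Of 21 fibrillar and network collagens 8 rose. Col3a1, a main fibrillar collagen of the artery, was 1072, 1109 and 1284 in WT and 2478, 5135 and 5140 in EKO (1.81 ± 0.38, adjusted p = 0.0119). The EKO libraries all lay above WT, with EKO replicate 1 the lowest of them. Col1a1 averaged 2966 ± 1291 against 834 ± 119 and Col1a2 3943 ± 1389 against 1295 ± 286. The regulatory collagen chain gene Col5a2 averaged 567 ± 165 against 208 ± 51.6.

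Enzymes that build and cross-link collagen rose in 8 of 27 cases. Lox, the lysyl oxidase that cross-links collagen and elastin, was 42.4, 63.5 and 75.1 in WT and 103.0, 314.1 and 331.4 in EKO (1.89 ± 0.40, adjusted p = 0.0119). Again the groups were apart and EKO replicate 1 was nearest to WT. Its relative Loxl2 averaged 115 ± 38.3 against 46.8 ± 2.35, the prolyl hydroxylase subunit P4ha1 139 ± 61.8 against 48.3 ± 1.02, and Mia3, which carries collagen out of the ER, 133 ± 10.2 against 98.7 ± 8.59. P4ha1 was also called with the brown fat covariate (1.502, adjusted p = 0.0314).

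Among basement membrane and matricellular genes 6 of 25 rose. Sparc, a collagen-binding matricellular protein, was 1448, 1794 and 1809 in WT and 2950, 4605 and 4727 in EKO (1.26 ± 0.25, adjusted p = 0.00874). Postn, encoding periostin, averaged 1967 ± 370 against 725 ± 225, Thbs1, encoding thrombospondin-1, 107 ± 59.3 against 23.8 ± 3.22, and the laminin chain genes Lama2 119 ± 42.1 against 54.8 ± 8.88 and Lamc1 372 ± 44.2 against 241 ± 34.3. Of 23 elastic fibre genes Adamtsl2, Fbln1 and Fbln2 rose, the last 2 encoding fibulins. Small leucine-rich proteoglycans had a median of 0.70 with 0 of 10 called. The other large rises were Cilp (2.62 ± 0.54), a cartilage intermediate layer protein, Angptl7 (2.05 ± 0.48), a secreted angiopoietin-like protein, Pdgfrl (1.76 ± 0.33), a protein similar to the platelet-derived growth factor receptor, and Pnmal2 (1.80 ± 0.49). Pnmal2 was 41.6 in EKO replicate 1, 9.19 and 10.3 in the other EKO libraries, and 3.41 to 4.98 in WT.

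Transforming growth factor beta genes, which include drivers of matrix synthesis, had a median of 0.34, and 4 of 20 rose: the ligand Tgfb2 (1.19 ± 0.35), the receptor Tgfbr1 (0.83 ± 0.22), the induced matrix protein Tgfbi (0.99 ± 0.28) and the related ligand Gdf6 (1.67 ± 0.37). In this list 0 were called without WT replicate 1 or 2, without EKO replicate 2 or 3 and with the brown fat covariate, and 7 without WT replicate 3 or EKO replicate 1. The gelatinase Mmp2 was the 1 called member of 25 matrix proteases and inhibitors (223 ± 55.2 against 91.4 ± 19.6), 4% against 4.97% of all genes. The matrix calls depended on the libraries. Of the 106 genes, 1 was called without WT replicate 1, 1 without EKO replicate 3 and 44 without EKO replicate 1. With the brown fat covariate 2 were called and the median was 0.34. Adventitial fibroblast markers, 16 in number, moved with this group, summing to 2149, 2118 and 1621 in WT and 2192, 3541 and 3302 in EKO, without overlap, and their part in the result was not tested. In whole tissue, more cells of a type and more RNA per cell cannot be told apart.

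**Figure D5:**
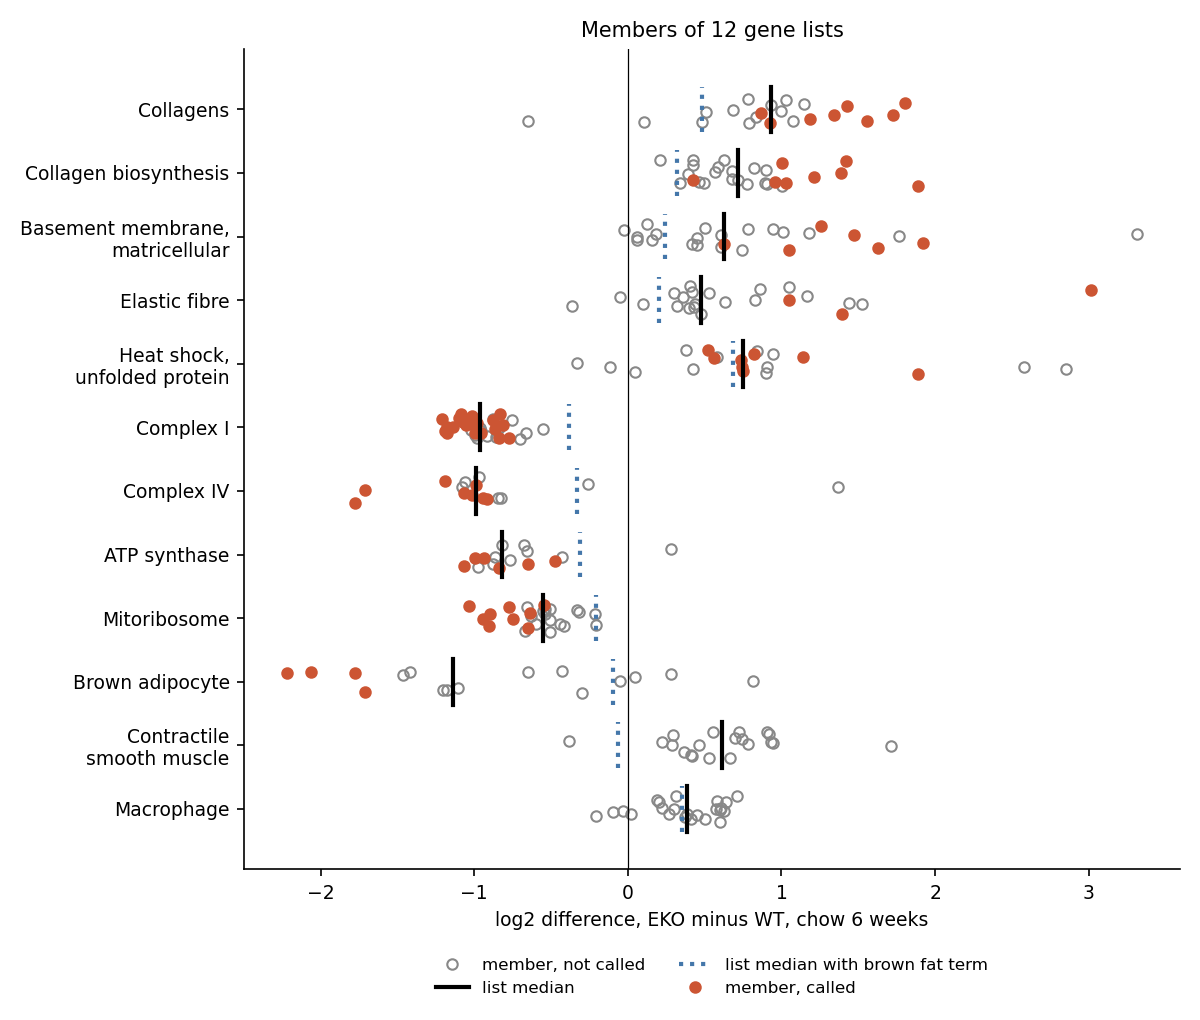
Log2 difference between EKO and WT on chow at 6 weeks (horizontal axis) of each measured member of 12 gene lists (vertical axis; vertical scatter within a list only separates points). Filled red points were called, open points were not, the black bar is the list median and the dotted blue bar the median with the brown fat covariate. Matrix and protein folding lists lie to the right of 0 and respiratory lists to the left. With the covariate the respiratory and matrix medians lie nearer to 0, that of collagens changing from 0.93 to 0.48. The median of the heat shock and unfolded protein list changes from 0.75 to 0.69.

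Chaperones were higher as well. Of 20 measured genes of the heat shock and unfolded protein list 8 rose and 0 fell, and the median was 0.75. Secreted proteins fold in the ER, where Hspa5 (the chaperone BiP), Hsp90b1, the disulfide isomerases Pdia4 and Pdia6, and the lectin chaperones Calr and Canx act on them. Hsp90b1 was 423.0, 418.7 and 412.3 in WT and 508.7, 778.4 and 1023 in EKO (0.82 ± 0.16, adjusted p = 0.00868). The WT libraries lay close together, all below EKO, and EKO replicate 1 was the lowest of its group. Hspa5 was 383.4, 386.1 and 377.0 in WT and 443.5, 708.8 and 851.1 in EKO (0.75 ± 0.18, adjusted p = 0.0236). Canx averaged 402 ± 32.3 against 272 ± 16.1 (0.56 ± 0.12, adjusted p = 0.0166), Calr 779 ± 236 against 452 ± 20.3 and Pdia4 140.3 ± 33.7 against 81.8 ± 5.86. The cytosolic Hsph1, a co-chaperone of heat shock proteins, averaged 248 ± 155 against 62.0 ± 38.2 with overlapping groups (1.89 ± 0.51, adjusted p = 0.0347). Of the list's 20 members 15 were called without EKO replicate 1, 0 without WT replicate 1 and 0 without EKO replicate 3. With the brown fat covariate Hsp90b1 (adjusted p = 0.0331) and Canx (adjusted p = 0.0314) were called, and the list's median was 0.69.

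Many ER chaperone genes carry a promoter sequence known as the ER stress response element, CCAAT followed after any 9 bases by CCACG, through which they are induced when unfolded protein builds up. It was searched on both strands in the 250 bases upstream of RefSeq gene starts (GRCm38.p6). It was found in 37 of 32851 promoter entries (0.113%) and in 15 of 10750 tested genes with an entry (0.14%). Among genes called higher in EKO it was found in 6 of 245 (2.45%), namely Calr, Canx, Dnajc3, Hsp90b1, Hspa5 and Pdia6, of which all but Dnajc3 belong to the list above. Among genes called lower it was found in 1 of 288 (0.347%). Of 17 members of the heat shock and unfolded protein list with an entry, 6 carried it (35.3%), among them Creld2, which was not called higher. The element is known from such chaperone genes, and the list was chosen with earlier results known. These shares are therefore a description without a test. The promoters of 4 called chaperones are shown because all carry it. Each is written 5′ to 3′ on the gene's strand up to the base before the RefSeq start, with each match in capitals, and matches on the opposite strand begin with CGTGG and end with ATTGG. A match describes letters and does not show that a factor was bound.
Hspa5, chr2:34771840-34772089, plus strand: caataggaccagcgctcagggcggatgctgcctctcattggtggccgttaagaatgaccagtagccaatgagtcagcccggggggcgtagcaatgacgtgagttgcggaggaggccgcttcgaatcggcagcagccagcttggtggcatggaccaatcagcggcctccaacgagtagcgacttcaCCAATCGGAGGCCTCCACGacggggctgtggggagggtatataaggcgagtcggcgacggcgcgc
Hsp90b1, chr10:86705445-86705694, minus strand: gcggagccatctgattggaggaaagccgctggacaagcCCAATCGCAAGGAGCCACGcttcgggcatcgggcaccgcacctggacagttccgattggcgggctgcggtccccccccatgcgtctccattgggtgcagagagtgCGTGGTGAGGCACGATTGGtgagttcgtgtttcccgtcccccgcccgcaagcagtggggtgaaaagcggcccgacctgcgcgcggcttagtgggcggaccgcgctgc
Calr, chr8:84846932-84847181, minus strand: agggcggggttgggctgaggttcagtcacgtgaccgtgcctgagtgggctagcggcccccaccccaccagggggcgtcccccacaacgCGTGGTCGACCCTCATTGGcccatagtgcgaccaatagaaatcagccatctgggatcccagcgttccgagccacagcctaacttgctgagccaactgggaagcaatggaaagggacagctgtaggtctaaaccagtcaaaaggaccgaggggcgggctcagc
Canx, chr11:50325674-50325923, minus strand: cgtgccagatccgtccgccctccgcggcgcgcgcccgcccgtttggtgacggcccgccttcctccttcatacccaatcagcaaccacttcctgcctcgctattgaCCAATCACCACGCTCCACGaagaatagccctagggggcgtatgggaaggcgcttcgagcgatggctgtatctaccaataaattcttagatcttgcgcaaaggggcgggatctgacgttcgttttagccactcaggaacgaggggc
Hsp90b1 had 2 matches, 1 on each strand, and the other 3 genes had 1. The match in Hspa5 began 65 bases before the start, that in Calr 162 and that in Canx 145, and in Hsp90b1 the pair began at 212 and 107.

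Mitochondrial genes were lower in EKO. Of 81 measured subunits of respiratory complexes I to IV and ATP synthase, 38 fell and 0 rose. The differences of 79 were negative, and the median was -0.94 against 0.01 over all genes. For 73 the groups did not overlap, as was true of 27.1% of all genes. Complex I, which takes electrons from NADH, had 22 of 37 members lower. Ndufb10 was 286.0, 217.6 and 160.7 in WT and 122.4, 114.9 and 78.4 in EKO (-1.05 ± 0.24, adjusted p = 0.0181). The EKO libraries all lay below WT, and WT replicate 3 was the nearest. Ndufb2 averaged 31.4 ± 3.77 against 63.5 ± 19.4 and Ndufa7 49.4 ± 4.86 against 88.9 ± 19.0. In complex III the cytochrome c1 gene Cyc1 averaged 226 ± 49.5 against 579 ± 161, and 2 of 10 members fell. Cytochrome c oxidase, complex IV, had 8 of 15 lower, among them Cox8b and Cox7a1, forms found in muscle and brown fat, and the general subunits Cox6a1 (-1.19 ± 0.33) and Cox6c (-1.02 ± 0.28). ATP synthase had 6 of 15 lower, with Atp5e at 100 ± 13.1 against 208 ± 71.0. Mitochondrial ribosome genes fell in 9 of 25 cases (median -0.56), and of 25 fatty acid oxidation genes 3 fell and 1, the outer membrane transferase Cpt1a, rose (137 ± 6.79 against 86.4 ± 8.54). Without WT replicate 3 the mitochondrial ribosome calls numbered 19 and those of fatty acid oxidation 13, and without EKO replicate 1 they numbered 12 and 5. Without WT replicate 1, WT replicate 2 or EKO replicate 3, and with the brown fat covariate, both lists had 0, and without EKO replicate 2 they had 0 and 1. Acaa2, which performs the last step of beta-oxidation, averaged 429 ± 126 against 1152 ± 326. Of 23 citric acid cycle and pyruvate genes Idh2, the mitochondrial isocitrate dehydrogenase, fell (136 ± 15.1 against 275 ± 21.5), and the list's median was -0.90. The share called was 4.35%, against 4.97% of all genes.

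Brown adipocyte markers moved with these genes. Their median was -1.14, and 4 of 16 fell: Fabp3, a fatty acid carrier, Kng2, Cox8b and Cox7a1. Of the 16, 7 were called without WT replicate 3, 2 without EKO replicate 2 and 0 without WT replicate 1, WT replicate 2 or EKO replicate 3. Fabp3 was 333.9, 238.8 and 169.5 in WT and 73.4, 53.4 and 32.5 in EKO (-2.22 ± 0.47, adjusted p = 0.0130). Cidea, a lipid droplet protein of brown fat, averaged 479 ± 163 against 1296 ± 491 (-1.42 ± 0.44, adjusted p = 0.0556), and Ucp1 differed by -1.10 ± 0.54 (adjusted p = 0.205). Elovl3, a fatty acid elongase of brown fat, was 45.6, 31.7 and 7.36 in WT and 22.4, 42.1 and 10.3 in EKO, so the groups overlapped. Slc25a42, the mitochondrial coenzyme A carrier, was 325.7, 276.1 and 136.4 in WT and 65.5, 70.6 and 49.2 in EKO (-1.90 ± 0.45) and was likewise highest in the WT library with the highest brown fat sum. Of the 81 respiratory genes, 0 were called without WT replicate 1, without WT replicate 2 or without EKO replicate 3, 9 without EKO replicate 2 and 68 without WT replicate 3. With the brown fat covariate 1 was called, and the median was -0.33. That covariate includes Cox8b and Cox7a1, which are themselves respiratory genes. White and shared adipocyte markers had a median of -0.81 with 0 of 20 called.

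Few genes of cholesterol handling or of macrophages were called at this time. Sterol synthesis genes had a median of 0.07 with 0 of 23 called, lipoprotein receptors and lipases 0.24 with 0 of 17, and of 15 LXR targets Apoc1 alone was called. Macrophage markers had a median of 0.39, 20 of 23 were positive and 0 were called. Cd68, a lysosomal glycoprotein of macrophages, was 14.6, 10.4 and 8.70 in WT and 14.1, 20.8 and 16.1 in EKO. The groups overlapped, and the difference was 0.57 ± 0.45 (adjusted p = 0.445). Foam cell genes had a median of 0.78, 0 of 18 were called, and for 11 of 18 the groups did not overlap (27.1% of all genes). Gpnmb, a glycoprotein of lipid-laden macrophages, was 24.5, 17.3 and 12.6 in WT and 61.5, 95.6 and 69.1 in EKO. Every EKO library was higher, yet the adjusted p was 0.114 (2.02 ± 0.77). Fitted on the 6 libraries alone it was 0.0999. MHC class II genes had a median of -0.23 with 0 of 10 called. The lysosomal protease Ctsh rose. Of 41 lysosome genes 2 were called (4.88%) and of 27 sphingolipid genes 1 (3.7%), against 4.97% of all genes. The called sphingolipid gene was Sgms2, a sphingomyelin synthase, which rose (0.93 ± 0.23).

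Endothelial and adhesion lists had few calls. Of 20 endothelial markers 2 rose, 10% against 4.97% of all genes, while the list's median was -0.01. The 2 were Pecam1 (520 ± 86.9 against 288 ± 26.0) and Vwf, encoding von Willebrand factor (420 ± 127 against 144 ± 13.5). Among 33 chemokine, cytokine and adhesion genes 2 rose, 6.06% against 4.97% of all genes. They were Vcam1 and Selp, both encoding adhesion molecules that capture leukocytes on endothelium. Vcam1 was 38.3, 37.8 and 36.2 in WT and 62.5, 96.7 and 100.7 in EKO (1.16 ± 0.33, adjusted p = 0.0424), and Selp averaged 28.7 ± 9.31 against 7.87 ± 0.82. Both had groups apart and lost the call without WT replicate 1, as did Pecam1 and Vwf. Of 19 complement genes 1 rose and 1 fell (10.5% called, against 4.97% of all genes), 17 had positive differences and the median was 0.30. Cd59a, which blocks the membrane attack complex of complement, fell (72.7 ± 12.3 against 111 ± 15.3). Contractile smooth muscle genes had a median of 0.61 with 0 of 20 called, and with the brown fat covariate the median was -0.06.

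Other lowered genes belonged to blood and mast cells or to ribosomal RNA. Erythroid and blood genes summed to 18810, 9132 and 24200 in WT and 7235, 8359 and 9119 in EKO, just without overlap, and of 12 the red cell enzyme Bpgm and the platelet chemokine Ppbp fell. How much blood each vessel still held was not tested. Of 7 mast cell genes the proteases Mcpt4 (3.08 ± 0.56 against 10.1 ± 2.83) and Tpsb2 (1.84 ± 0.74 against 7.58 ± 4.24) fell. Both calls were lost without WT replicate 1 or 2, without EKO replicate 2 or 3 and with the brown fat covariate. The mast cell sum overlapped between the groups, at 94.1, 72.5 and 68.8 in WT and 76.5, 44.3 and 59.6 in EKO. The ribosomal RNA entries Rn45s and Rn28s1 held the same values in all 6 libraries, 74.8, 43.9 and 61.7 in WT and 13.6, 20.6 and 8.00 in EKO (-2.08 ± 0.42, adjusted p = 0.0102), so they count as 1 measurement. The part of ribosomal RNA carried into a library in other differences was not tested. The remaining large falls were Mir6236 (-1.85 ± 0.41), Rasd1, a Ras-related protein induced by glucocorticoids (-1.75 ± 0.48), and Cpn2, a subunit of the plasma carboxypeptidase N (-1.75 ± 0.52). Cell cycle, interferon-stimulated, circadian clock, lymphocyte, Schwann cell, skeletal and cardiac muscle lists had 0 calls. In that order their medians were -0.09, 0.13, -0.47, -0.86, -0.21, 1.29 and 1.05. Without EKO replicate 1 the skeletal muscle median was -0.28, and 7 of 18 clock genes were called, in a fit that called 1185 of 14157 genes.

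The same genotype contrast in other libraries shows which differences recurred. On WD for 6 weeks, with 6 other libraries, 770 genes were called (5.44%), 558 higher (3.94%) and 212 lower (1.50%). Of the 321 genes higher on chow 78 were also higher there, 24.3% of the chow genes and 14% of those higher on WD. Of the 383 lower on chow 29 were also lower, 7.57% of the chow genes and 13.7% of those lower on WD, and none was called in the opposite direction. No gene passed a test of the difference between the effects on WD and on chow (limma, 0 of 14157, with 1529 genes at an unadjusted p below 0.05). On chow for 22 weeks 2165 genes were called (15.3%), 1041 higher (7.35%) and 1124 lower (7.94%). Of the higher genes 28 were higher again and 33 were lower, and of the lower genes 16 were lower again and 29 were higher. The difference between the 22-week and 6-week effects passed for 2135 genes (15.1%), being positive for 1037 (7.32%) and negative for 1098 (7.76%). Among them were 165 of the 321 higher genes and 244 of the 383 lower ones. These genes were selected on the 6-week effect that the difference subtracts, so their shares cannot be compared with that of all genes. Without WT replicate 1 of chow at 6 weeks 712 genes passed this test, without WT replicate 2 of that group 1200, and without EKO replicate 3 of that group 707.

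The 3 contrasts use separate libraries, and list medians are given for each in turn. Collagens had a median of 0.93 on chow at 6 weeks, 1.00 on WD at 6 weeks and -0.15 on chow at 22 weeks, and for 8 of 21 the 22-week effect was lower than the 6-week effect by test. Complex I had medians of -0.96, -0.60 and 0.19, and for 19 of 37 the 22-week effect was higher. The heat shock and unfolded protein list had medians of 0.75, 0.17 and 0.10. For 5 of 20 the 22-week effect was lower than the 6-week effect on chow by test. The effects on WD and on chow at 6 weeks differed by test for 0 of 20. Macrophage markers had medians of 0.39, 1.15 and 1.72, with 10 of 23 having a higher effect at 22 weeks. MHC class II genes had medians of -0.23, 0.86 and 1.71, and 7 of 10 passed the same test.

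Of the 13 genes called in all 8 fits, 11 were called in the same direction on WD at 6 weeks and 8 on chow at 22 weeks. For the 8 on chromosome 7 these counts were 7 and 6. Lgals4 differed by -1.98 on WD at 6 weeks and -1.34 on chow at 22 weeks, and Plac9b by 2.28 and 2.36. Adamtsl2 differed by 2.33 on WD at 6 weeks (adjusted p = 0.00671) and 0.35 on chow at 22 weeks (adjusted p = 0.664). Plpp1 was not called in either. Across the 29 libraries that this comparison did not use, the 9 WT libraries and the 20 that lack Apoe did not overlap for 22 genes (0.155% of all). Those included Apoe, Apoc1 and Plac9b, and 21 of the 22 had the same direction on chow at 6 weeks. Apoc1 lay between 32.7 and 172 in the other WT libraries and between 1.37 and 21.1 in those lacking Apoe. Also among them were Vmn2r29, a vomeronasal receptor gene 90 measured genes from Apoe on chromosome 7, and the microRNA gene Mir8114 on chromosome 1, both named after their values were seen. Vmn2r29 was 6.84, 5.31 and 4.17 in WT and 1.51, 2.20 and 1.31 in EKO at 6 weeks on chow. Mir8114 was 0, 1.20 and 0 in WT and 11.5, 16.2 and 7.44 in EKO, and it was listed at 0 in all 9 other WT libraries.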

How the data were processed

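Normalised signal per gene in each of 35 aortic libraries was read from the single table that the authors deposited. The 6 columns compared added to 940726 to 1042070. The builds mm8 and mm9 and the tools RSEM, Bowtie2 and Bowtie 0.12.2 appear in the submitters' processing notes, without roles. How the signal was scaled is not given in the sources used here. Most but not all low values resolved into whole reads (76 to 78% within 0.02 of a whole number in the 6 libraries), so no count test was run.

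Differences were fitted with limma 3.58.1 in R 4.3.3 in robust mode with an intensity trend. The response was log2(value + 1), and 1 model held 12 groups, 35 libraries and no covariates. Genes needed 1 unit of signal or more in 3 or more libraries, which 14157 met and 17 did not. All tests were two-sided. The fit was tested on simulated data. Gene order and promoters came from RefSeq GRCm38, where 13671 symbols matched by name and 440 as a synonym.

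The comparison and all 48 gene lists were chosen with earlier results of these data known. Genes named were the Apoe cluster, the 12 largest rises and falls among called genes with groups apart and a mean log2 of at least 3 (predicted genes and receptor segments excluded), genes called in all left-out and brown fat fits or in the fit of 6, up to 4 members of smallest p per list, and defining brown fat and neuron markers. Acta2, Cd68, Gpnmb, Hspa5, Hsph1 and genes said to be so were named after their values were seen, as was Dnajc3 for its promoter. Some genes that the rule covers are not reported here. A total of 20 alternatives was run.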

Additional observations from a re-analysis of the deposited data

Results flagged for a closer look

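The effect of EKO against WT on chow was tested for a difference between 22 and 6 weeks, and 2135 genes passed (limma, adjusted p below 0.05, 15.1% of 14157). Of 95 genes described above, 43 were among them. Many of the 95 were named for their 6-week effect, which the difference subtracts, so this share cannot be compared with that of all genes. Values below are the log2 effect at 22 weeks minus that at 6 weeks, from 2 sets of 6 libraries that share none.

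Of the 106 matrix genes 23 passed, among them 2 elastic fibre genes whose effect was higher at 22 weeks. Thbs1 (adjusted p = 0.963), Fbln2 (adjusted p = 0.950), Lamc1 (adjusted p = 0.170) and Col1a1 (adjusted p = 0.0965) were among those that did not (limma). The matrix and transforming growth factor beta genes described above that passed had lower effects at 22 weeks: Lox by -2.68, Adamtsl2 -2.66, Postn -2.25, Col3a1 -2.07, Sparc -1.77, P4ha1 -1.67, Col1a2 -1.64, Col5a2 -1.57, Loxl2 -1.31, Tgfbr1 -1.25 and Mia3 -0.41. Among the 5 of 20 heat shock and unfolded protein genes that passed were Hsph1 (-2.23), Hsp90b1 (-1.04), Canx (-0.81) and Hspa5 (-0.75). The lipid enzymes Plpp1 and Sgms2 gave -1.37 and -1.07. Actn2 gave -4.21. The cardiac marker sum was 66.2 to 89.8 in WT and 130 to 311 in EKO on chow at 6 weeks. The median effect of the 13 cardiac markers was 1.05 on chow at 6 weeks and -3.18 on chow at 22 weeks. For 6 of the 13 the 22-week effect was lower by test. The part of cardiac tissue at either time was not tested.

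The mitochondrial and brown fat genes described above that passed had higher effects at 22 weeks: Slc25a42 2.65, Kng2 2.52, Acaa2 2.05, Fabp3 1.99, Cyc1 1.93, Cidea 1.87, Cox8b 1.78, Cox6a1 1.63, Ndufb10 1.35, Ndufb2 1.24, Idh2 1.14, Tomm40 1.14 and Ndufa7 0.99. So did the macrophage genes Cd5l (4.5) and Cd68 (2.26), as did the mast cell proteases Tpsb2 (3.33) and Mcpt4 (2.80). On chromosome 7 the effect was nearer to 0 at 22 weeks for Apoe (1.48), Slc1a5 (1.26) and Rps19 (0.70). The remaining values were 2.79 for Cpn2, 2.17 for Rasd1, 1.80 for Mir6236 and 1.93 for the identical entries Rn45s and Rn28s1.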

How the results depend on the processing

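Calls numbered 9 (7 higher, 2 lower) in the fit of the 6 libraries alone, 56 (23 and 33) with the brown fat term, 95 (47 and 48) with brown fat and nerve terms and 1094 (579 higher) without the 2 libraries of highest nerve level, against 704. Leaving out 1 library gave 16 to 1533 (8 to 651 higher, 8 to 882 lower), 707 to 2897 for the difference between 22 and 6 weeks and 0 to 1 for that between WD and chow. Other pseudocounts, filters, rescaling (402 higher, 373 lower), the sex term, the nerve term and plain limma left between 670 and 813 calls. With a replicate block the count was 805, or 749 in the 6 libraries, 290 of them shared with the 704. Same-numbered WT and EKO libraries had residual correlations of -0.26, 0.12 and -0.04, and differently numbered ones ran from -0.39 to 0.29. With 3 libraries a group, these values cannot decide whether the numbers pair libraries. No called gene among those described changed direction. Among the lists described with a median more than 0.1 from 0, some changed the sign of their median. Adipocyte markers did so with the brown fat term (0.038) and with both terms (0.039), as did contractile smooth muscle (-0.062 and -0.058). Lipoprotein receptors did so at a minimum value of 10 (-0.017). With 1 library left out, MHC class II ran from -0.357 to 0.002 and Schwann cell genes from -0.796 to 0.0812. Skeletal muscle genes ran from -0.281 to 2.33 and sympathetic neuron genes from -1.33 to 1.407, both lowest without EKO replicate 1. Without the 2 nerve-rich libraries, medians were -1.33 for sympathetic neuron genes and -0.281 for skeletal muscle. Medians nearer to 0 changed sign for sterol synthesis, LXR targets, endothelial markers, cell cycle and Y-linked genes. With 3 libraries a group, brown fat content and genotype move together here, and a call lost with the brown fat term does not show that a gene is unaffected by genotype. Depth is known only as an estimate, and for genes at a signal of a few units it limits precision.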
